A study of Homo sapiens with 12 samples.

Results

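Huh7 cells, an established human hepatoma line, were compared after 24 h with recombinant mouse erythroferrone (ERFE) at 10 µg/ml and after 24 h untreated. The comparison takes the 4 arrays titled with mouse ERFE and the 4 titled untreated, 8 of the 12 arrays of the series, and covers all 10891 detected named genes of the Illumina HT-12 v4 platform. The other 4 arrays held cells given human ERFE at the same dose and time, and they entered the model so that all groups share one estimate of the spread. Both arrays with title codes A4 and B4 carry replicate number 3 and are written 3-A4 and 3-B4 here. Untreated cells were the only control, with neither vehicle nor another protein. The labels do not state whether cultures were separate, so the p-values rest on the spread of these arrays, and that spread may be technical.

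ERFE is a hormone secreted by erythroid precursors that binds bone morphogenetic proteins (BMPs) and thereby lowers hepcidin, the liver peptide that blocks iron release into blood. In hepatocytes BMP6 and related ligands act through receptor kinases that phosphorylate SMAD proteins. The SMAD complex then switches on the hepcidin gene HAMP together with a set of feedback and differentiation regulators, among them the ID genes, SMAD6 and SMAD7. The comparison asks what a mouse ERFE does to these genes, and to all others, in a human hepatocyte-derived line.

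Between 34.5% and 39.1% of the 47323 probes were detected on an array. Hepatocyte markers bore out the label: 8 of 9 were measured, limma called 0 of them (0 at an unadjusted p under 0.05), and their mean log2 level lay between 13.47 and 13.53 on all 8 arrays. The leukocyte genes PTPRC and CD3E were detected on 0 of the 8 arrays. Listed macrophage and endothelial markers were mixed. CD68, CD14 and PECAM1 were detected on all 4 arrays of each group, and CD163, VWF, CDH5, KDR and STAB2 on 0. MARCO was detected on 1 untreated and 3 mouse ERFE arrays, and CSF1R on 2 untreated and 1 mouse ERFE array. The 8 measured genes of the MHC class II list, which serve antigen presentation, separated the arrays in another way than treatment did. Their mean log2 level was 8.52, 8.81, 8.14 and 5.99 on untreated replicates 1 to 4, and 8.54, 6.73, 6.34 and 6.43 on mouse ERFE replicates 1, 2, 3-A4 and 3-B4. The class was thus high on 3 of 4 untreated arrays and on 1 of 4 mouse ERFE arrays, although its regulator CIITA was detected on none of the 8. Interferon-stimulated genes moved with it, with a mean log2 level of 7.26, 7.48, 7.35 and 6.31 on the untreated arrays and 7.44, 6.49, 6.44 and 6.46 on the mouse ERFE arrays. When the mean level of the MHC class II list was added as a covariate, 16 of the 24 genes described next kept their call, and CLRN3, LFNG, LINC01451, MTURN, PKN3, TCIM, TFF2 and TOR4A did not.

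Between mouse ERFE and untreated arrays, 24 of the 10891 genes differed at a limma adjusted p under 0.05 (0.220% of those tested). Of these, 8 were higher with mouse ERFE (0.0735%) and 16 lower (0.147%), called rises and falls here. The falls ran from 0.43 to 1.81 on the log2 scale and the rises from 0.49 to 0.76. Only HAMP and the transcription factor gene TBX2 moved by more than 2-fold, both downward. For all 24 genes the 4 mouse ERFE arrays and the 4 untreated arrays did not overlap, against 756 such genes (6.94%) among all tested. The 24 were picked by their p from these same arrays, so this lack of overlap largely follows from the selection and is no added support. Of the 24, 22 were detected on all 8 arrays. At an unadjusted p under 0.05, limma gave 535 genes higher (4.91%) and 720 lower (6.61%), 11.5% of those tested.

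**Figure D1:**
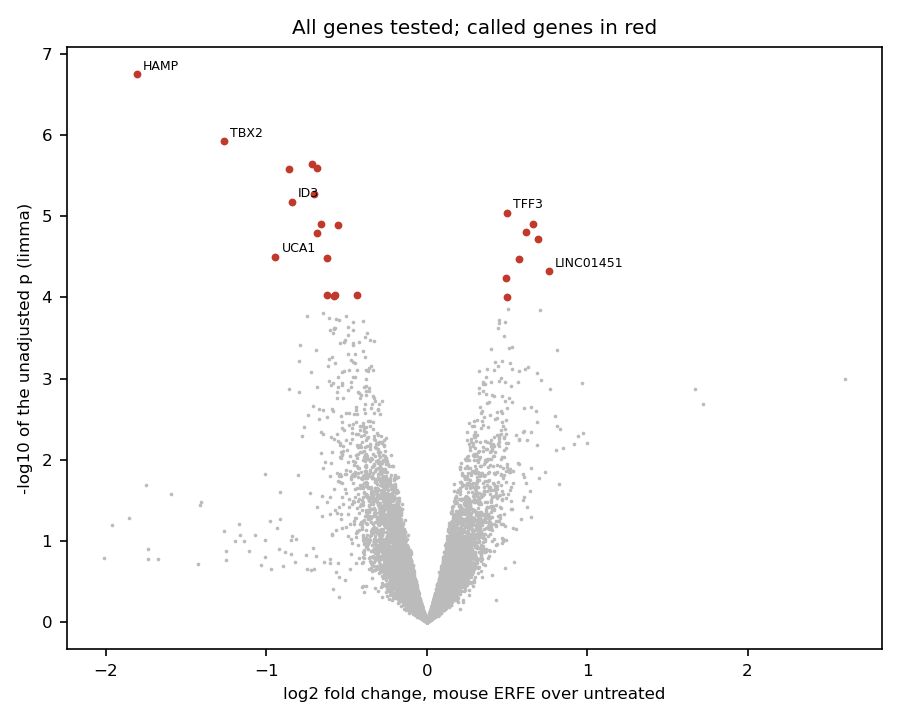
Each of the 10891 genes by its log2 fold change, mouse ERFE over untreated (x axis), and −log10 of its unadjusted p (y axis). The 24 called genes are red, with 16 to the left and 8 to the right, and HAMP at a log2 change of −1.81 lies highest and farthest left among them. Grey points farther out on either side did not pass the test.

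The count of calls moved with single arrays and with the scaling. Leaving out untreated replicate 1, 2, 3 or 4 gave 5, 2, 1 and 75 genes higher and 12, 8, 7 and 81 lower. Leaving out mouse ERFE replicate 1, 2, 3-A4 or 3-B4 gave 6, 5, 2 and 6 higher and 11, 14, 13 and 13 lower. All 24 calls remained without untreated replicate 4, the only untreated array that was low in MHC class II genes. The untreated arrays left were all high in those genes, and most mouse ERFE arrays were low. This omission thus lines that level up with treatment and cannot test the calls against it. Scaling by array medians in place of quantiles left 0 higher and 4 lower genes (HAMP, TBX2, SMAD6 and ID3), and with a block for the number in the title code limma called 0 genes either way, with 473 higher and 553 lower at an unadjusted p under 0.05. Under that block HAMP had −1.76, TBX2 −1.32, SMAD6 −0.79 and ID3 −0.84, each with an adjusted p of 0.0883. Deviations from the group means correlated at 0.33, 0.21 and 0.22 in the 3 pairs of an untreated and a mouse ERFE array that share the code number. In the other pairs they correlated between −0.34 and 0.19. The pairs with mouse ERFE replicates 3-A4 and 3-B4 share untreated replicate 4, and the correlations had no test.

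Of the measured BMP/SMAD targets HAMP, SMAD6, ID3 and ID1 fell, and the other 7 did not pass the test. HAMP, which encodes hepcidin, read 6.96, 7.28, 7.24 and 6.62 on the untreated arrays and 5.29, 4.88, 5.18 and 5.51 on the mouse ERFE arrays, in log2 normalized signal. Every mouse ERFE array lay below every untreated one, with a gap of 1.11 between the nearest arrays. The mean went from 7.02 ± 0.31 (SD, n = 4) to 5.22 ± 0.26 (SD, n = 4), a log2 change of −1.81 (SE 0.18) with a limma adjusted p of 0.00193. HAMP was detected on all 4 untreated arrays and on 1 of 4 mouse ERFE arrays, so the treated level lies at or near background and the size of the fall is not an exact fold. Without background correction its log2 change was −0.66, still past the test (adjusted p = 0.000604). In bulk RNA of this kind, fewer cells making a transcript and less of it per cell cannot be told apart.

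SMAD6, an inhibitory SMAD that BMP signalling itself induces, read 7.81, 8.05, 8.03 and 7.94 untreated and 6.99, 7.07, 7.05 and 7.28 with mouse ERFE. It fell by 0.86 on the log2 scale (SE 0.11; 1.81-fold lower; adjusted p = 0.00559). ID3 and ID1 encode helix-loop-helix proteins that block the DNA binding of other transcription factors. ID3 read 11.95, 12.07, 12.04 and 12.21 against 11.16, 11.12, 11.26 and 11.36, and fell by 0.84 (SE 0.11; 1.79-fold lower; adjusted p = 0.0102). For ID1 the untreated arrays gave 12.95, 12.97, 13.06 and 13.13 and the treated arrays 12.36, 12.22, 12.43 and 12.48. Its log2 change was −0.66 (1.58-fold lower; adjusted p = 0.0126), and a dim second probe gave −0.30. The mouse ERFE arrays stood below the untreated ones for all 3 genes, by a wide margin relative to the scatter within groups. ID1 was not called without untreated replicate 3 (adjusted p = 0.0625), whereas HAMP, SMAD6 and ID3 were called whichever array was left out.

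The promoters of these 4 genes are shown because the genes moved together and because SMAD complexes are known to bind GC-rich elements and the palindrome GTCTAGAC. Each runs from 250 bases before to 50 after the annotated start, from RefSeq on GRCh38.p14, and capitals mark GGCGCC or GTCTAGAC, which read the same on both strands and do not overlap one another. HAMP lies at chr19:35282278-35282577 (plus strand), SMAD6 at chr15:66701986-66702285 (plus), ID3 at chr1:23559452-23559751 (minus) and ID1 at chr20:31605039-31605338 (plus).
HAMP: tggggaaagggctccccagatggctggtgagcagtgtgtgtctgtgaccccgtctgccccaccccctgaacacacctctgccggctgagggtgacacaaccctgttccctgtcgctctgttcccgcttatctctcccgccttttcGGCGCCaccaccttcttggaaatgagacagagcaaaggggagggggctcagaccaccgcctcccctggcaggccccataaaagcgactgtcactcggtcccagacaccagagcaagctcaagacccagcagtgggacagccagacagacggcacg
SMAD6: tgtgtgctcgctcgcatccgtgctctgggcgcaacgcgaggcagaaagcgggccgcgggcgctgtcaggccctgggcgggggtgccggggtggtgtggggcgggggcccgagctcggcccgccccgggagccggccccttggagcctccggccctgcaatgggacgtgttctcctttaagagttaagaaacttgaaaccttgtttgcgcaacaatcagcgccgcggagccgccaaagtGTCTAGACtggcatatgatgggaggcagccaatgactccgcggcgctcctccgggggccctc
ID3: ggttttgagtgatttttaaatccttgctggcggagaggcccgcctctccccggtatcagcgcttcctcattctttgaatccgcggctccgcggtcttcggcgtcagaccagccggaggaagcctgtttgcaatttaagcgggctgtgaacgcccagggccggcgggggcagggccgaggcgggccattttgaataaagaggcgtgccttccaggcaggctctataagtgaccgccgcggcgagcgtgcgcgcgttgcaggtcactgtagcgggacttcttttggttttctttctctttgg
ID1: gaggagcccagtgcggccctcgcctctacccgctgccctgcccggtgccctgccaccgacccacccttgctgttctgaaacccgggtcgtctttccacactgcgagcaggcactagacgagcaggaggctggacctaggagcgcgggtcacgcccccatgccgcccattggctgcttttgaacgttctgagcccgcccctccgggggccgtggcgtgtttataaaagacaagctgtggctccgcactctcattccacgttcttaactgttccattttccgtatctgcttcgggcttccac
The HAMP window holds GGCGCC 105 bases before the start, and the SMAD6 window holds GTCTAGAC 12 bases before it. The ID3 and ID1 windows hold neither sequence of letters. Of 35116 promoters of this length, 19.2% held GGCGCC and 0.202% held GTCTAGAC. Among called genes with a promoter in the table, GGCGCC was in 5 of the 14 that fell and in 1 of the 4 that rose, beside 30% of the tested genes. GTCTAGAC was in 1 of the 14 and in 0.125% of the tested genes. These matches are descriptions of the letters only.

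Of the 18 listed BMP/SMAD targets, 11 were measured, 4 fell and none rose, where 0.147% of all tested genes fell. The list was chosen with earlier results of these data known, so its contrast with all genes is no independent support. The arrays did not overlap for 6 of the 11, all lower, where 4.02% of all tested genes had non-overlapping lower arrays. The median log2 change of the list was −0.54, beside −0.00 over all genes. ID2, another helix-loop-helix inhibitor, read 11.02, 11.20, 11.07 and 11.23 untreated and 10.47, 10.56, 10.42 and 10.81 treated (log2 change −0.56, adjusted p = 0.0605), just outside the threshold. SMAD7, the other inhibitory SMAD, read 7.11, 7.21, 7.57 and 7.40 against 6.73, 6.66, 6.73 and 7.01 (−0.54, adjusted p = 0.0693). A second probe for ID2 gave −0.66 and passed when adjusted over all probes (adjusted p = 0.0285), and the mean of the ID2 probes also passed (−0.61, adjusted p = 0.00434). The second SMAD7 probe gave −0.60 (adjusted p over all probes = 0.408). The remaining members showed smaller values and overlapping arrays: MSX1, a homeobox gene, had −0.34 and HEY1, a bHLH repressor, −0.13. BAMBI, a decoy receptor for the family, had −0.07, with untreated arrays between 12.14 and 12.29 and treated arrays between 11.96 and 12.26. TBX3 and DLX3 had 0.04 and 0.07. DLX3 was detected on 5 of the 12 arrays and lay near background, so its value cannot show whether it responded.

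**Figure D2:**
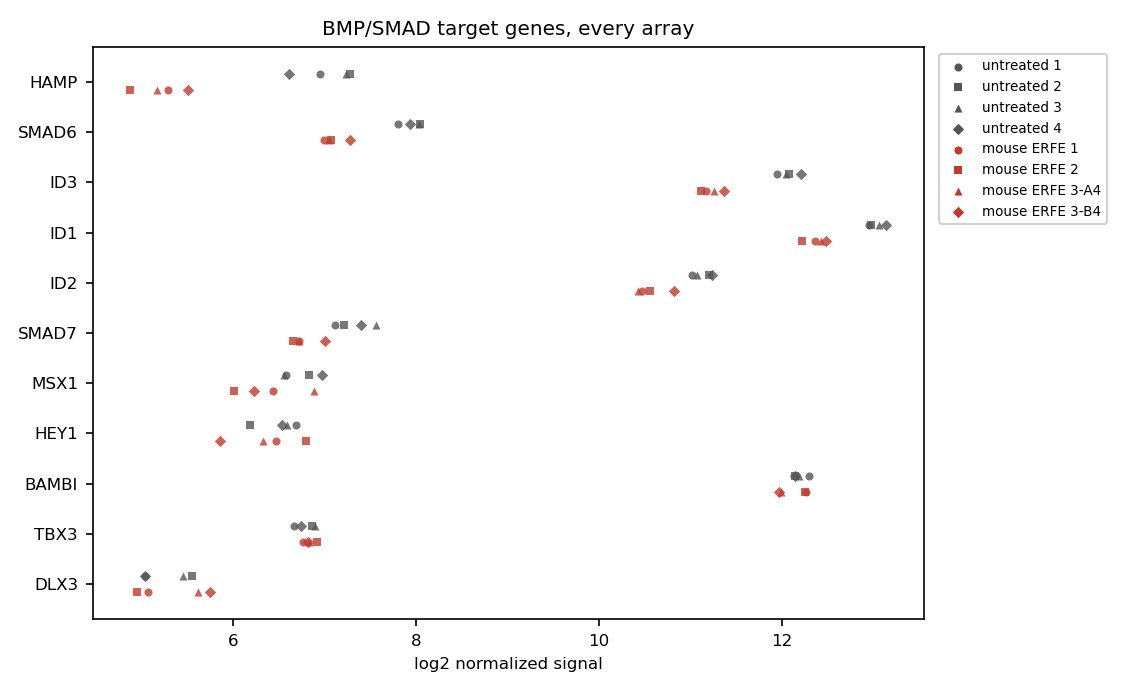
Log2 normalized signal (x axis) of the 11 measured BMP/SMAD targets on each untreated (grey) and mouse ERFE (red) array, with a symbol per replicate. HAMP, SMAD6, ID3, ID1, ID2 and SMAD7 have all 4 red points to the left of all grey ones, whereas the points of MSX1, HEY1, BAMBI, TBX3 and DLX3 overlap.

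Genes that carry the signal, rather than respond to it, did not pass the test. Of 30 listed ligands, receptors, SMADs and hepcidin regulators, 16 were measured and limma called 0, with 2 higher and 1 lower at an unadjusted p under 0.05. Their median log2 change was −0.01. BMPR2, the type II BMP receptor, was the only one without overlap (0.33, adjusted p = 0.353). HJV, a BMP co-receptor that hepcidin expression needs, had −0.40 (adjusted p = 0.333) and SMAD5, a receptor-activated SMAD, 0.22 (adjusted p = 0.408). Second probes went the other way, with 0.13 for HJV and −0.15 for SMAD5, and that of BMPR2 gave 0.09. TMPRSS6, the protease that cleaves HJV, had 0.22 and TFR2, a transferrin sensor, −0.20. TFR2 was detected on 7 of the 12 arrays and lay near background. Of 18 iron transport and storage genes limma called 0, with 1 at an unadjusted p under 0.05: HMOX1, which encodes a heme-degrading enzyme, at −0.67 (adjusted p = 0.171). It passed without untreated replicate 4, at −0.82 (adjusted p = 0.0448), an omission that raised the count of calls over all genes. TGF-beta and activin response genes gave 0 calls among 13, with 2 higher and 1 lower at an unadjusted p under 0.05 and a median of 0.02.

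Among called genes outside the BMP/SMAD target list, TBX2 fell most. Absence from that list does not mean that a gene is no BMP target. TBX2, a T-box repressor of transcription, read 7.07, 7.13, 6.97 and 7.33 untreated and 6.02, 5.74, 5.81 and 5.88 with mouse ERFE. Its mean went from 7.13 ± 0.15 to 5.86 ± 0.12 (SD, n = 4 each), a log2 change of −1.26 (SE 0.15; 2.40-fold lower; adjusted p = 0.00559). CDX2, a homeobox factor of intestinal epithelium, read 7.75, 7.92, 8.08 and 7.78 against 7.19, 7.04, 7.25 and 7.19. It fell by 0.71 (1.64-fold lower; adjusted p = 0.00559), from a mean of 7.88 ± 0.15 to 7.17 ± 0.09. Neither gene's groups came near each other. TBX2 was the only one called among 6 measured T-box and homeobox genes of its list, and its relative TBX3 had 0.04. Without background correction the log2 changes were smaller, at −0.51 for TBX2, −0.50 for SMAD6 and −0.42 for CDX2, and all 3 still passed.

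The long noncoding RNA UCA1, known from bladder carcinoma, read 7.60, 7.64, 7.79 and 7.92 untreated and 6.74, 7.18, 6.59 and 6.66 treated. It fell by 0.94 (SE 0.15; 1.92-fold lower; adjusted p = 0.0217), with mouse ERFE replicate 2 nearest to the untreated arrays. SLC29A3, a nucleoside transporter of lysosomes, read 9.16, 9.27, 9.23 and 9.14 against 8.55, 8.41, 8.57 and 8.52, a fall of 0.69 (SE 0.09; adjusted p = 0.00559). The arrays of each group lay within 0.2 of one another for SLC29A3. SH3TC1 read 9.06, 9.03, 9.10 and 8.78 against 8.19, 8.25, 8.30 and 8.42 and fell by 0.70 (adjusted p = 0.00953). PFKFB3 sets the level of an activator of glycolysis, and it read 9.86, 10.09, 10.06 and 9.99 against 9.13, 9.38, 9.41 and 9.33. It fell by 0.69 (1.61-fold lower; adjusted p = 0.0134), and its second probe gave −0.48. PFKFB3 was not called when the mean of its probes was used. It was the only call among 23 measured glycolysis and gluconeogenesis genes, whose median was −0.01. TNFRSF1A, the main receptor for tumour necrosis factor, read 10.47, 10.65, 10.58 and 10.47 against 9.75, 9.84, 10.11 and 9.98, a fall of 0.62 (adjusted p = 0.0217). S100P, a calcium-binding protein of epithelia, fell by 0.55 (adjusted p = 0.0126).

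The smaller falls were those of MTURN (−0.62), PKN3 (−0.58), TOR4A (−0.57) and CLRN3 (−0.43), each with an adjusted p of 0.0443. Without background correction MTURN had −0.26 and passed, while PKN3 had −0.21 (adjusted p = 0.103) and did not. PKN3 also missed the threshold with an offset of 50 (−0.40, adjusted p = 0.0523). PKN3 is a kinase related to protein kinase C, and TOR4A belongs to the torsin ATPases. SLC29A3, SH3TC1, TBX2 and CDX2 were called whichever array was left out. UCA1, PFKFB3, TNFRSF1A, S100P, MTURN, PKN3, TOR4A and CLRN3 each lost the call without untreated replicate 2 and without untreated replicate 3. For PFKFB3 and S100P no other single array mattered, and their largest adjusted p was 0.0665. UCA1 also lost it without mouse ERFE replicate 1, 3-A4 or 3-B4 (largest adjusted p = 0.086). TNFRSF1A, TOR4A and CLRN3 lost it without 6 of the 8 arrays, and MTURN and PKN3 without 7.

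Among the 8 genes that rose were a pair of trefoil factors, small secreted peptides that protect mucosal surfaces. TFF3 read 10.56, 10.63, 10.70 and 10.56 untreated and 11.14, 11.18, 11.09 and 11.04 with mouse ERFE, a rise of 0.50 (SE 0.07; 1.41-fold higher; adjusted p = 0.0122). TFF2 read 8.28, 8.02, 8.07 and 8.16 against 8.44, 8.59, 8.77 and 8.72, a rise of 0.50 (SE 0.09; adjusted p = 0.0443). The groups were clear of each other for TFF3 and separated by little for TFF2. In the RefSeq annotation of GRCh38.p14 the genes are neighbours, with 0 genes between them. TFF1, which lies beyond TFF2 with 1 noncoding gene between and is named here for that position after its value was seen, had 0.41 (adjusted p = 0.408). Of the 14 measured gut-type epithelial genes, TFF2 and TFF3 rose and CDX2 fell, and CDH17, an intestinal cadherin, had −0.33 (adjusted p = 0.126). Over all genes tested, 0.220% were called. The list was chosen with earlier results of these data known, so its calls are no result about gut-type genes as a class.

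NR0B2 encodes SHP, a nuclear receptor that represses bile acid synthesis. It read 7.74, 7.77, 7.54 and 7.56 untreated and 8.08, 8.32, 8.40 and 8.44 treated, and rose by 0.66 (SE 0.10; 1.58-fold higher; adjusted p = 0.0126). It was the only call among the 10 measured bile acid genes. SLC51B, a subunit of the bile acid exporter, read 9.54, 9.53, 9.42 and 9.60 against 9.19, 9.12, 9.06 and 9.19 (−0.38, adjusted p = 0.086), and the fibroblast growth factor receptor FGFR4 had −0.32 (adjusted p = 0.226). The treated arrays of both lay below the untreated ones, with a narrow gap of 0.07 for FGFR4. Of the 10 hepatocyte transcription factors NR0B2 was again the only call, with ONECUT2 at 0.65, PROX1 at 0.37 and CEBPA at −0.29. The other ONECUT2 probes gave 0.52, 0.12 and 0.22, and the brightest had a limma adjusted p over all probes of 0.194.

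TENT5C, a poly(A) polymerase that lengthens the tails of messenger RNAs, lay between 7.85 and 8.26 on the untreated arrays and between 8.54 and 8.93 on the treated ones and rose by 0.69 (SE 0.10; adjusted p = 0.0147). The other 8 measured poly(A) polymerase genes were not called. LFNG, a glycosyltransferase that modifies Notch receptors, read 8.82, 8.97, 8.85 and 8.93 against 9.31, 9.43, 9.66 and 9.50. It rose by 0.58 (adjusted p = 0.0217), and its other probes gave 0.60 and 0.53. LFNG was not called when the mean of its probes was used. Of 10 measured Notch pathway genes it was the only call, beside NOTCH1 at 0.44 and the Notch target HES1 at −0.39 (adjusted p = 0.111). TCIM, a regulator linked to Wnt signalling, read 9.08, 9.15, 9.12 and 9.29 against 9.78, 9.68, 9.61 and 9.55 and rose by 0.49 (adjusted p = 0.033). Of 14 measured Wnt genes it was the only call, with the receptor-degrading ligase RNF43 at −0.46 (adjusted p = 0.0693; −0.49 and 0.0477 without untreated replicate 4) and MYC at −0.45 (adjusted p = 0.0902).

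CADM4, a cell adhesion molecule, read 5.50, 5.32, 5.24 and 5.47 untreated and 5.98, 5.88, 5.91 and 6.22 treated. It rose by 0.62 (adjusted p = 0.0134) and was detected on 2 of 4 untreated and 4 of 4 mouse ERFE arrays. The rise was 0.19 without background correction and then did not pass (adjusted p = 0.121). LINC01451, a long noncoding RNA, lay between 5.75 and 6.2 on the untreated arrays and between 6.62 and 6.88 on the treated ones. It rose by 0.76 (SE 0.13; adjusted p = 0.0288), and by 0.29 without background correction. Of the 14 adhesion genes measured, CADM4 alone was called, and the arrays of 4 did not overlap, all higher, where 2.92% of all genes had non-overlapping higher arrays. CADM1 had 0.39 (adjusted p = 0.135). TFF3 was called whichever array was left out, whereas the other 7 raised genes lost the call without untreated replicate 3. CADM4 also lost it without untreated replicate 2, NR0B2 without mouse ERFE replicate 3-A4, and TENT5C without either. LFNG, TCIM and TFF2 lost it without 6 of the 8 arrays and LINC01451 without 7.

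**Figure D3:**
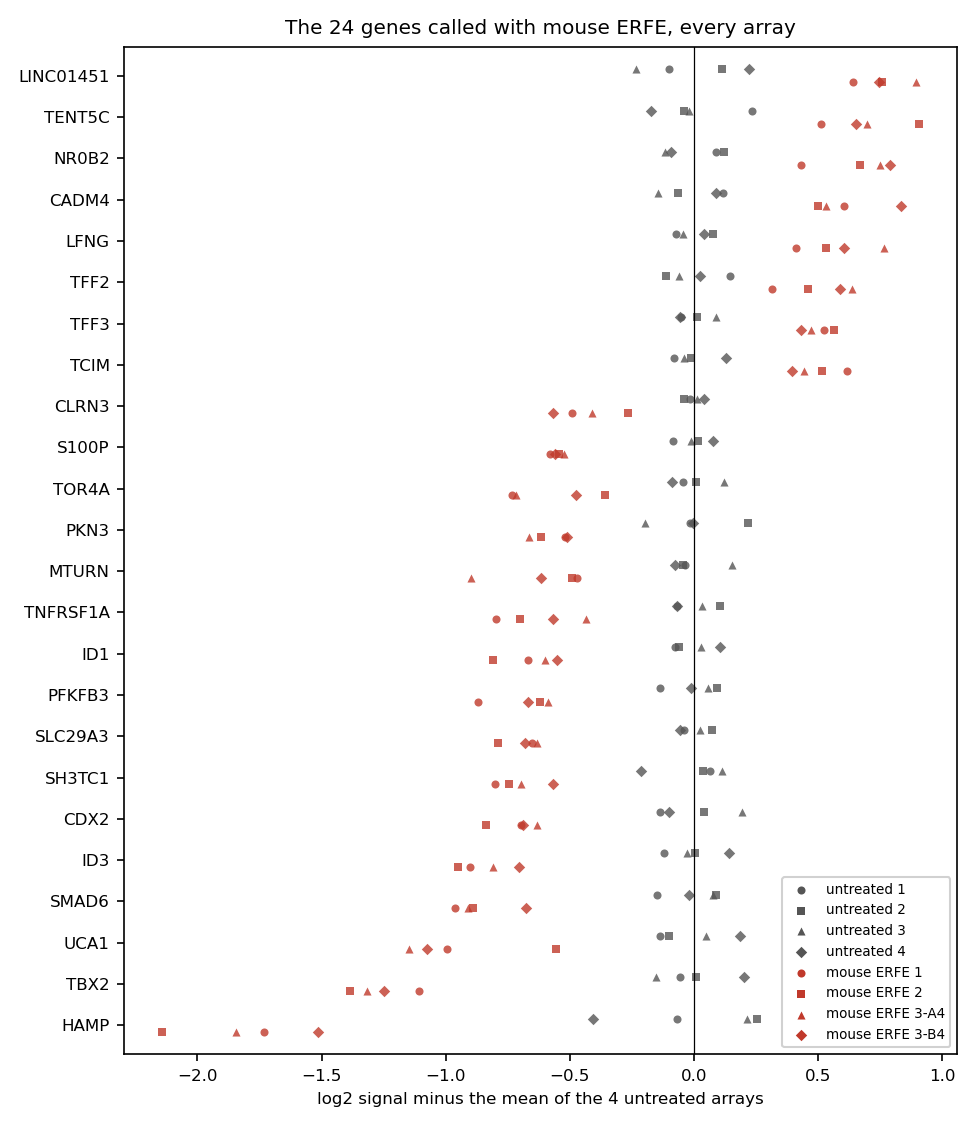
Log2 signal of the 24 called genes on each array, minus the mean of the 4 untreated arrays (x axis), with untreated arrays in grey, mouse ERFE arrays in red and a symbol per replicate. The red and grey points of a gene do not overlap for any of the 24. HAMP spreads most widely, and untreated replicate 4 is its lowest untreated array at 6.62.

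Several gene groups with known roles in hepatoma cells gave no call. Of 15 measured NRF2 targets limma called 0, with 0 higher and 3 lower at an unadjusted p under 0.05. All 15 had log2 changes below 0, as had 5537 of all 10891 genes, and the median of the 15 was −0.11. The shared direction had no test. SRXN1 had −0.38 (adjusted p = 0.106), and −0.43 (adjusted p = 0.0452) without untreated replicate 4. ERK feedback genes gave 0 calls among 14, with 4 lower at an unadjusted p under 0.05, a median of −0.16 and 5 members whose treated arrays all lay lower. SPRY4, an inhibitor of receptor kinase signalling, had −0.46 (adjusted p = 0.0605; −0.51 and 0.0225 without untreated replicate 4; second probe −0.09) and the phosphatase gene DUSP1 −0.36 (adjusted p = 0.116). The share of non-overlapping lower genes in that list, 5 of 14, stood beside 4.02% of all genes. NF-kB targets and regulators gave 0 calls among 20, with 4 higher and 1 lower at an unadjusted p under 0.05. The chemokine gene CXCL6 had 0.37 (adjusted p = 0.107; second probe 0.16), and the subunit gene RELA 0.61.

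Cytochrome P450 and conjugation genes had a median of 0.25 over 9 measured members, with 0 calls and 3 higher and 1 lower at an unadjusted p under 0.05. GSTA2 had 0.51 (adjusted p = 0.0744; other probes 0.38 and 0.07) and GSTA1 0.35 (adjusted p = 0.19). These glutathione transferases are near-identical neighbours, and the arrays may not tell them apart. Cell cycle genes gave 0 calls among 23, with 2 higher and 4 lower at an unadjusted p under 0.05, and MCM3, a subunit of the replication helicase, had −0.33 (adjusted p = 0.0693). The measured members of the hypoxia, coagulation and complement, metallothionein and unfolded protein lists had 0 calls and 0 at an unadjusted p under 0.05. The coagulation factor gene F13B is not on the coagulation list. It had 0.45 and lay just outside the threshold, as given below. Interferon-stimulated genes had a median of −0.31 and MHC class II genes −0.59, with 0 calls among 18 and 8, and with 3 and 0 at an unadjusted p under 0.05. Their levels followed the arrays described at the outset, high on untreated replicates 1 to 3 and mouse ERFE replicate 1.

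**Figure D4:**
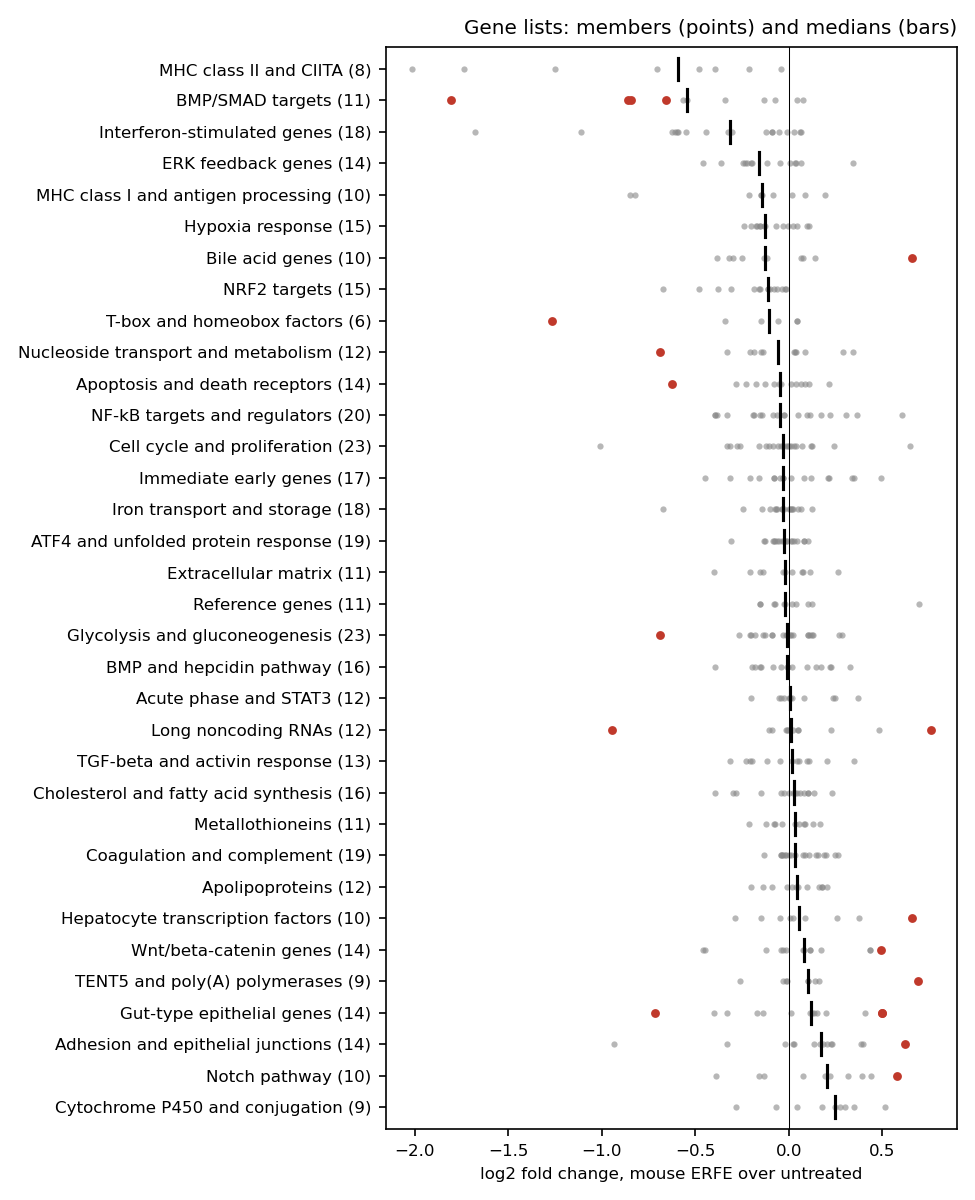
Log2 fold change, mouse ERFE over untreated (x axis), of the measured members of each gene list, with the number measured in parentheses, called genes in red and the median as a bar. The BMP/SMAD targets have 4 red points and a median of −0.54. MHC class II genes have a median of −0.59 and no red point.

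A band of genes lay just outside the threshold, with adjusted p-values of 0.0604 to 0.0605 against 0.0443 for the last genes inside it. The 10 nearest were RAB13 (0.51), ZNF664, TMC6 (−0.65), TRIM71 (−0.50), CD38 (−0.74), RABL6 (−0.61), ID2 (−0.56), F13B (0.45), LTBR (−0.55) and DNMT3B (−0.40). ZNF664 was detected on 0 of 4 untreated arrays and is given by a bound, at least 1.37-fold higher with mouse ERFE. Without untreated replicate 4, 9 of these 10 passed, and ID2 passed without mouse ERFE replicate 3-B4 (−0.65, adjusted p = 0.0425). Leaving out untreated replicate 4 gave the most calls of any omission, 75 higher and 81 lower over all genes. LTBR, the lymphotoxin beta receptor, lies near TNFRSF1A in RefSeq GRCh38.p14, with 1 protein-coding gene, SCNN1A, between them. Some genes had larger changes and no overlap but did not pass. ALYREF, an mRNA export adaptor, read 5.90, 5.73, 5.50 and 7.77 untreated and 8.08, 7.77, 7.84 and 7.91 treated (1.67, adjusted p = 0.113), so untreated replicate 4 alone stood near the treated arrays. Without that array the change was 2.19 and passed (adjusted p = 0.00152). The groups differed by 2.18 within title code number 1 but by 0.11 within number 4, which holds that array. HYAL2, which encodes a hyaluronidase, gave −0.80, with untreated replicate 4 at 9.40 and the others between 10.17 and 10.37. It passed without that array, at −1.01 (adjusted p = 0.0109). HYAL2 differed by −1.19 within title code number 1 and by −0.09 within number 4.

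The human protein was given at the same dose and time, and its comparison with untreated cells shares the untreated arrays, so the values are only set side by side. HAMP had −1.81 with mouse and −1.85 with human ERFE, TBX2 −1.26 and −1.20, SMAD6 −0.86 and −0.97, ID3 −0.84 and −1.01, and ID1 −0.66 and −0.75. In the test of human against mouse ERFE itself, limma called 0 of the 24 genes, with 2 at an unadjusted p under 0.05, and 1 of all 10891 genes (0.00918%). The 95% interval of the human minus mouse difference, unadjusted for the number of genes, ran from −0.25 to 0.38 for TBX2. For SMAD6 it ran from −0.34 to 0.12 and for ID3 from −0.41 to 0.08, so differences of that size remain possible. HAMP was detected on 1 of 4 arrays with either protein, so its interval of −0.43 to 0.33 sets no limit on how far the proteins differ in their effect on HAMP. PKN3 stood apart: it had −0.58 with mouse and −0.01 with human ERFE, a difference of 0.57 (interval 0.35 to 0.79) that missed the threshold when adjusted over the 10891 genes (adjusted p = 0.29), in a gene whose own fall was not called without background correction. CD38, an ectoenzyme that consumes NAD, had −0.74 and 0.04, and TOR4A −0.57 and −0.35. The 1 gene that passed between the proteins was CXCL1, a neutrophil-attracting chemokine, which was 0.92 higher with human than with mouse ERFE and had 0.22 with mouse ERFE over untreated (adjusted p = 0.422).

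**Figure D5:**
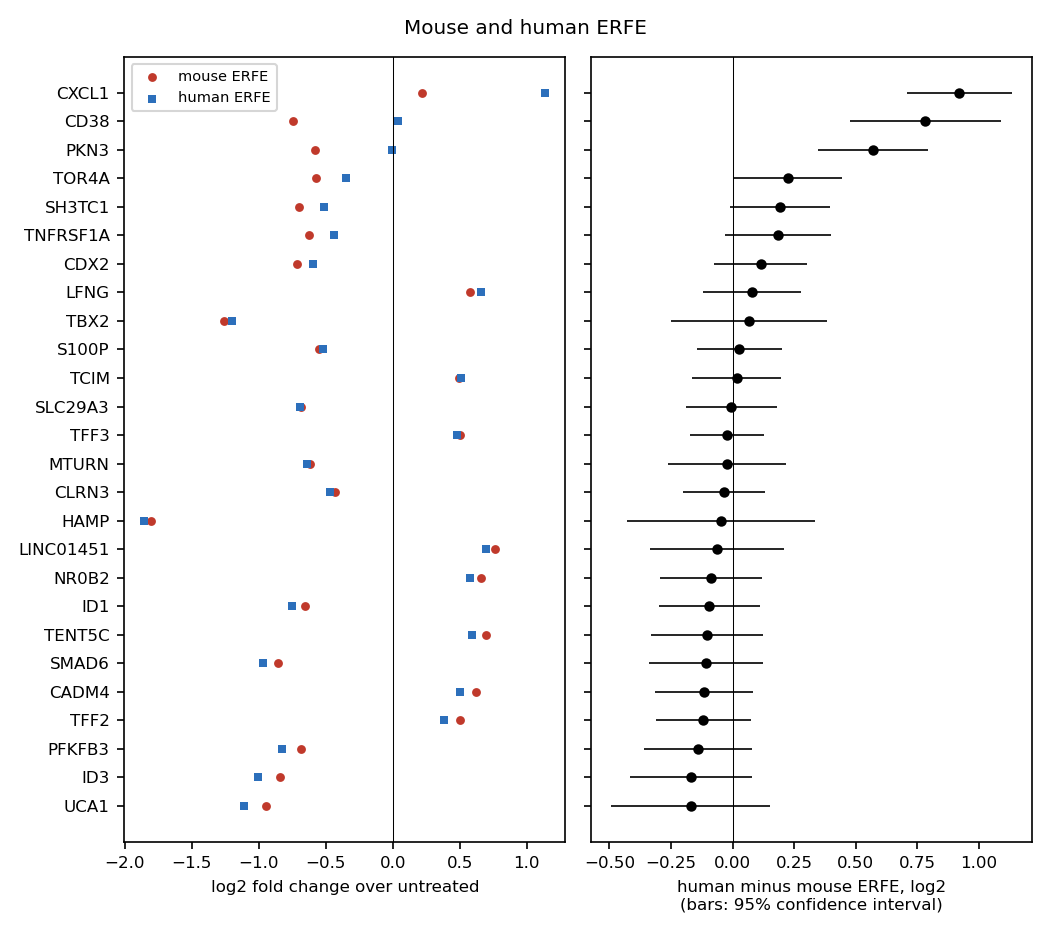
Left, log2 fold change over the shared untreated arrays with mouse (red) and human (blue) ERFE for the 24 called genes, CD38 and CXCL1. Right, the human minus mouse difference with its unadjusted 95% confidence interval, in log2. The intervals of CXCL1, CD38 and PKN3 lie to the right of 0, that of TOR4A starts at 0.00, and that of HAMP, which was near background with both proteins, runs from −0.43 to 0.33.

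Arrays whose title codes share a number allow a comparison within it. Code number 1 held 1 untreated and 1 mouse ERFE array, and code number 4 held 1 untreated and 2 mouse ERFE arrays, whereas the others held a single group of this pair. HAMP differed by −1.67 within code number 1 and by −1.27 within code number 4, and TBX2 by −1.05 and −1.48. These values come from 1 or 2 arrays a group and had no test. They are part of the overall difference and no independent support for it, and the meaning of the codes is not given in the sources used here.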

How the data were processed

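Total RNA of Huh7 cells was labelled as cRNA and hybridised to Illumina bead arrays, per the labels' protocols. The deposited values are linear signal intensities, per the file headers, and the median intensity of an array lay between 139.5 and 186.3. A detection p-value against negative controls was deposited beside each intensity. The packages lumi and limma appear in the submitters' processing notes without versions, and the handling of background is not given in the sources used here. The tables offered as normalized values repeat the raw intensities (567876 of 567876 values equal in each).

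Signals were corrected and quantile-normalized by the neqc function of limma 3.58.1 under R 4.3.3 (statmod 1.5.0). It used an offset of 16 and inferred the negative controls from detection p-values. A probe was kept when at least 4 of the 12 arrays detected it at p under 0.05, which held for 18646. Of 47323 probes, 30113 have 1 gene symbol in the platform annotation, 8 several and 17202 none. Against RefSeq GRCh38.p14, 30074 matched by Entrez ID. The 4491 unnamed probes tested separately gave 0 limma calls. Each gene was taken from its brightest probe, which left 10891 genes, and 2679 of these had more than 1 probe. lmFit and eBayes fitted 3 group means over the 12 arrays, and Benjamini-Hochberg adjusted p-values were called at a threshold of 0.05. All p-values in the text are two-sided and from limma. The steps were tested on simulated data. Arrays carry no read depth, and their number limits the precision.

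Groups and replicate numbers came from the titles. The pair titled replicate 3 differed with an SD of 0.262 (18 pairs within groups gave 0.259 to 0.384) and was kept as 2 arrays, with their mean as an alternative. Replicate numbers did not pair the samples: deviations from group means correlated at 0.33, −0.16, −0.05 and −0.06 between arrays of the same replicate number. Arrays sharing the number of their title code correlated at 0.33, 0.21 and 0.22, and that number was run as a block.

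The members and gene lists were chosen with earlier results of these data known. Named are all called genes, all measured BMP targets and pathway genes, up to 4 members of each other list by smallest p, the 10 nearest uncalled genes, genes called with or against human ERFE, and the 10 largest changes without overlap. Alternatives were other background corrections, offsets, scalings, filters, probe rules, sample sets, spread models, blocks, a covariate and each array left out.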

Additional observations from a re-analysis of the deposited data

Results flagged for a closer look

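In the untreated group of MTURN, replicate 3 lay apart from the other arrays. Its log2 signal was 7.10, while the other untreated arrays lay between 6.87 and 6.91, and by Dixon's ratio the gap was past the 95% critical value for 4 samples. This was 1 of 62 groups examined over 31 genes, and chance alone marks about 1 in 20 groups. The fall of MTURN with mouse ERFE did not pass without that array. This was not particular to it, since the call was lost without any of 7 of the 8 arrays.

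CXCL1 differed between the proteins: its level was 0.92 higher with human than with mouse ERFE on the log2 scale, by limma's test of the difference over all 10891 genes.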

How the results depend on the processing

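The limits of these results lie in 4 arrays a group and in signals near background, among the called genes for HAMP and CADM4. Without background correction CADM4 and PKN3 lost the call, and the changes of CDX2, HAMP, LINC01451, MTURN, NR0B2, SMAD6, TBX2 and UCA1 shrank by over 1.5 times. Against 8 genes higher and 16 lower, no background correction gave 25 and 54, an offset of 50 gave 13 and 25, a filter of detection on all 12 arrays 17 and 45, and a trended robust fit 19 and 46. Median scaling gave 0 higher and 4 lower, where limma had 158 higher at an unadjusted p under 0.05, and it moved the median of all genes to −0.06. The share of calls that were higher went from 33.3% to 0% there. Higher genes numbered 3 with the 8 arrays alone, 2 with the pair titled replicate 3 averaged and 4 with the MHC class II covariate. Of the 3 higher genes with the 8 arrays alone, 2 were among the original calls. Without the human ERFE arrays in the model, 13 of the 24 calls were kept and 11 were lost. The lost calls were those of CADM4, NR0B2, TENT5C, LFNG, TCIM, TFF2, TNFRSF1A, CLRN3, MTURN, PKN3 and TOR4A. The title's code letter as a block gave 1 and 7, and its code number as a block gave 0 and 0 and also 0 genes between human and mouse ERFE (749 at an unadjusted p under 0.05). The replicate block, although the numbers do not pair the arrays, gave 19 higher and 39 lower, with 5 and 13 of the original calls among them. Leaving out each array in turn gave 1 to 75 higher and 7 to 81 lower, the fewest without untreated replicate 3 and the most without untreated replicate 4. No called gene changed sign under any alternative. HAMP, TBX2, SMAD6 and ID3 lost the call under the code number block alone, and the log2 change of HAMP ran from −1.96 to −0.66. The cause of each change was not tested. The deposited normalized table was not run as an alternative because its values are those of the raw table.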
